A study of Homo sapiens with 18 samples.

Results

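The zinc finger genes of human chromosome 19 were followed in 18 RNA-seq libraries of the K562 cell line, a chronic myeloid leukaemia line with erythroid features. Members were the protein-coding genes on chromosome 19 whose symbol was ZNF followed by a digit, without a hyphen. There were 246 of them among the 41285 genes counted. The study, which its title places in work on the RNA-binding protein SAMD9, used 3 isogenic lines in 9 groups of 2 libraries. VPR-D9 carried a doxycycline-inducible dCas9-VPR, a catalytically dead Cas9 fused to a transcriptional activator, and was sampled in the doxycycline groups D2000 and D6 and untreated. KRAB-D9 carried a doxycycline-inducible dCas9-KRAB, the same protein fused to a repressor domain, and was sampled with doxycycline and interferon alpha (IFN), with doxycycline, with IFN and untreated. The parental line was sampled with IFN and untreated. The labels' general protocol gives 2 µg/mL for doxycycline, without saying whether that dose held for D2000 and D6, and IFN treatment lasted 24 hours at 1000 U/mL. In the combined group, doxycycline preceded IFN by 24 hours and was kept on during it. The meaning of the codes D2000 and D6 is not given in the sources used here, nor whether either engineered line is a single clone. Parental cells with doxycycline were not analysed here, so an effect of doxycycline itself and of the induced protein cannot be told apart.

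Most chromosome 19 zinc finger genes encode DNA-binding proteins with a row of C2H2 fingers, and many of these also have a KRAB box, a repressor domain. The KRAB box binds TRIM28, a scaffold that brings the histone H3K9 methyltransferase SETDB1, HP1 proteins and histone deacetylases, so that silent chromatin forms where the fingers bind. The family grew by tandem duplication and stands in clusters. Several members bind retroelements, such as ZNF91 and ZNF93, and the 3′ ends of the zinc finger genes themselves are bound by one member, ZNF274. KRAB is therefore present here in 2 ways, as a domain of the members and as the domain fused to dCas9 in KRAB-D9.

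Members were grouped by position, with a new cluster wherever neighbouring members were more than 1 Mb apart and a minimum of 5 members. This gave 9 clusters, numbered C1 to C9 along the chromosome on GRCh38, and 11 members that stood outside them (scattered). On the short arm, C1 had 5 members at 2.82 to 2.94 Mb, C2 had 15 at 7.07 to 9.79 Mb and C3 had 25 at 11.48 to 12.64 Mb. C4 spanned 19.67 to 24.13 Mb with 37 members and no other protein-coding gene inside it. On the long arm, C5 had 5 members at 34.68 to 34.96 Mb, C6 had 27 at 36.18 to 37.82 Mb and C7 had 24 at 43.53 to 45.08 Mb. C8 had 39 at 51.57 to 53.58 Mb, and C9, the largest, had 58 at 55.48 to 58.48 Mb near the end of the chromosome. A pattern search of GENCODE 29 coding transcripts matched a KRAB-A box in 177 of the 246 members and a median of 12 C2H2 fingers per member, with 36 in ZNF208. Such a search can miss degenerate fingers and boxes. Members are similar in sequence: a median of 9.48% of a member's 31-base words also occurred in another gene's transcripts, and 11 members were above 50% (ZNF20, ZNF763, ZNF443, ZNF724, ZNF490, ZNF468, ZNF564, ZNF709, ZNF320, ZNF625 and ZNF177). Counts of these 11 are uncertain, as are those of the 159 members that another gene overlaps, since the strand setting of the counting is not given in the sources used here.

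The libraries held 32694200 to 63037568 counts, of which members took 0.282% to 0.322%. The KRAB-D9 IFN libraries were the least alike. Their squared deviation, averaged over genes, was 17.9 times the counting variance, against 4.59 to 6.67 times in the other groups. The first of them held the fewest counts of all libraries, 32694200, against 59653278 in the second. SAMD9 averaged 961 CPM (counts scaled to a common library size) in D2000, 948 in D6 and 60.6 in untreated VPR-D9. It averaged 0.0585 CPM with doxycycline and 0.557 CPM untreated in KRAB-D9, and 161 CPM with IFN and 9.18 CPM untreated in the parental line. All 11 erythroid and K562 markers checked averaged at least 1 CPM. Their summed level was 662 to 668 CPM in D2000, 1199 to 1221 in D6 and 1340 to 1344 in untreated VPR-D9, against 3087 to 4016 in KRAB-D9 and 2146 to 2536 in the parental line. The summed level of 3 fibroblast collagen genes (COL1A1, COL1A2 and COL3A1) was 32.2 to 33.1 CPM in D2000 and 32.4 to 32.6 in D6, against 3.98 to 4.74 CPM in untreated VPR-D9. It was 12.4 to 39.9 CPM over the KRAB-D9 libraries, against 5.09 to 7.62 CPM over the parental libraries. The epithelial list (EPCAM, CDH1 and KRT5) summed to 30.4 to 30.7 CPM in D2000 and 60.9 to 61.1 in D6, against 64.4 to 69.6 CPM in untreated VPR-D9. Of it, EPCAM was at a median of 75.6 CPM over all libraries, CDH1 at 0.0258 and KRT5 at 0. Of the endothelial list, PECAM1 was at a median of 3.43 CPM, and VWF and CDH5 at 0. The part of these shifts in the differences between groups was not tested.

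Most members were transcribed at low levels. Of the 246, 231 had enough counts to be tested, 189 averaged at least 1 CPM and 93 at least 10 CPM. The other 15 had at most 91 counts over all libraries. Per length, the median tested member reached 1.22 RPKM (CPM per kilobase of gene model), averaged over the 9 groups. ZNF146 in C6, a protein made almost only of fingers, was highest at 58 RPKM and 240 CPM. It was followed per length by ZNF428 in C7 at 28.5 RPKM, ZNF787 in C9 at 19.6, ZNF581 at 12.9, ZNF121 in C2 at 12.5, ZNF317 at 11.4 and ZNF480 in C8 at 10.8. The highest member of C1 was ZNF77 at 3.69 RPKM, of C3 ZNF700 at 6.6, of C4 ZNF100 at 5.21 and of C5 ZNF30 at 5.03. Among members at 1 CPM or more, ZNF71 ranged over 6.02 log2 units, ZNF302 over 5.87 and ZNF724 over 5.08 (on the log2 scale of CPM plus 0.05), against a median range of 0.87 units in these members.

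The promoters of 6 members are shown because the results below turn on their genes: ZNF43 and ZNF257 of C4, ZNF302 of C5, ZNF229 of C7, and ZNF71 and ZNF274 of C9. Each is the RefSeq window of 250 bases before to 50 after the gene's RefSeq start on GRCh38.p14, written 5′ to 3′ on the gene's strand, with CpG dinucleotides in capitals. For ZNF43 that window lies inside the gene as counted, whose 5′ end is further upstream, so it stands at an internal start. ZNF43 lies at chr19:21836133-21836432 (minus strand), ZNF257 at chr19:22052234-22052533 (plus), ZNF302 at chr19:34677428-34677727 (plus), ZNF229 at chr19:44448423-44448722 (minus), ZNF71 at chr19:56595052-56595351 (plus) and ZNF274 at chr19:58182811-58183110 (plus).
ZNF43: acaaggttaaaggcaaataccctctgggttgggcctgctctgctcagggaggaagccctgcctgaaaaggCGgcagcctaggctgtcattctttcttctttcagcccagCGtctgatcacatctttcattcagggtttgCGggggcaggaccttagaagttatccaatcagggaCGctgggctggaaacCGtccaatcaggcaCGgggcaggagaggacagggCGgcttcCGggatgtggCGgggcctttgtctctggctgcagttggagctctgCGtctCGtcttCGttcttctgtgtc
ZNF257: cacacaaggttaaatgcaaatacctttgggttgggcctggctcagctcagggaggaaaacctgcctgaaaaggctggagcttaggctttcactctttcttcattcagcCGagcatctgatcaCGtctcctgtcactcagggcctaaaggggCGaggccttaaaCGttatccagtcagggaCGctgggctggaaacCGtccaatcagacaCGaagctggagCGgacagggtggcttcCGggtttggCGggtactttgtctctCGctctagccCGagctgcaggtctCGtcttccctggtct
ZNF302: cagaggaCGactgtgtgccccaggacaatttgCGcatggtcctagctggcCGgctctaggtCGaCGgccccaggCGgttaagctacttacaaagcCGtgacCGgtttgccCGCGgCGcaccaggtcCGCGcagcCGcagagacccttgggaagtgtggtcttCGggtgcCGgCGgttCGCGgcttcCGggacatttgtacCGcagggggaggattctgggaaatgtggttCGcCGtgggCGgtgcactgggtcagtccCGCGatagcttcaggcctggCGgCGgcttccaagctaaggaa
ZNF229: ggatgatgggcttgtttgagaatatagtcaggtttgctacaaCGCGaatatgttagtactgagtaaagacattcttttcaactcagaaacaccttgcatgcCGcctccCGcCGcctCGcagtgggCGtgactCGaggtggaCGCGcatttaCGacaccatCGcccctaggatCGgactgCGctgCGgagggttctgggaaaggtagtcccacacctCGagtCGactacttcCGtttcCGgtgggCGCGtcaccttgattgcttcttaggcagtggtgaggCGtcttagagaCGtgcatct
ZNF71: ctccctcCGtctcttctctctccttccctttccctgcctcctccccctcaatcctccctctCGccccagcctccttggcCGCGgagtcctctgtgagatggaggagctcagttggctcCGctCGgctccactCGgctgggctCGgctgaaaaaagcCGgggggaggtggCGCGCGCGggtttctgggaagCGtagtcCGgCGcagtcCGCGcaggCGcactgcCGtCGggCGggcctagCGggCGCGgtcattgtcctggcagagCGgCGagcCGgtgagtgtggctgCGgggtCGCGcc
ZNF274: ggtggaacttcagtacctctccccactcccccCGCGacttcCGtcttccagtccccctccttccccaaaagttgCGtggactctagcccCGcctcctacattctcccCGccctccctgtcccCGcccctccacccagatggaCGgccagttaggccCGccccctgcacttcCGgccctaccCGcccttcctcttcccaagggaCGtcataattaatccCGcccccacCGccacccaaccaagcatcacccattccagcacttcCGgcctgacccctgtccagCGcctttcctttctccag

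The C4 promoters held fewer CpG dinucleotides, 12 in ZNF43 and 13 in ZNF257, than those of ZNF302 (28), ZNF229 (23), ZNF71 (31) and ZNF274 (16). Set against the number their base composition gives, the observed to expected CpG ratio was 0.49 in ZNF43, 0.56 in ZNF257, 0.92 in ZNF302, 1.04 in ZNF229, 0.84 in ZNF71 and 0.70 in ZNF274. Of the 246 members, 215 had a promoter in the RefSeq table. Their median ratio was 0.764, against 0.579 over all 35116 promoters in that table. The members are protein-coding, whereas the table does not mark which promoters are, so all promoters are not a matched set. C4 stood lowest with a median of 0.438 and C3 next with 0.609, whereas the other clusters lay between 0.749 (C2) and 0.869 (C5). In C4, 13.8% of promoters reached a ratio of 0.6, against 48.9% of all promoters. The letters GAAANNGAA, which resemble the core of the interferon-stimulated response element, occurred on either strand in 3.72% of the member promoters (ZNF699, ZNF382, ZNF461, ZNF567, ZNF229, ZNF583, ZNF71 and ZNF419) and in 8.11% of all promoters.

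Members called between untreated VPR-D9 cells and untreated parental cells were unevenly spread over the clusters. Most of the called members of C4 were lower in VPR-D9, and most of those of C6 and C7 were higher. A gene was called where its adjusted p fell under 0.05 in edgeR's quasi-likelihood test with Benjamini-Hochberg adjustment over all 22143 genes tested, and log2 differences are given with their standard error (SE). By that rule, 18.5% of all genes tested were higher in VPR-D9 than in parental cells and 18.2% lower. At 1 CPM or more, 27.2% of all genes were higher and 26% lower. Of the 231 tested members, of which 189 averaged at least 1 CPM, 62 (26.8%) were higher and 51 (22.1%) lower. These shares lay above those of all genes tested, but not above those of all genes at 1 CPM or more. The member shares at 1 CPM or more are not given here for this comparison. Without the first untreated parental library the number of higher calls was 40. No label states that a group's 2 libraries are independent cultures, and the spread behind each p-value may thus be technical. In such bulk RNA, fewer cells with a transcript and less of it per cell cannot be told apart.

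In C4, 18 of 33 tested members were lower in VPR-D9 than in parental cells and 1 was higher (ZNF429, log2 difference 0.23), with a median log2 difference of -1.04. ZNF257 (chromosome 19, 22052430 to 22091480) had 1.57 and 1.44 CPM in VPR-D9, against 14.9 and 16.5 CPM in parental cells. ZNF43 (21804946 to 21852125), which lies near it with ZNF208 between them, had 2.06 and 2.02 CPM in VPR-D9, against 13.3 and 11.4 CPM in parental cells. The libraries did not overlap for either gene, and the log2 differences were -3.38 ± 0.19 for ZNF257 (edgeR adjusted p = 1.29e-17) and -2.60 ± 0.17 for ZNF43 (5.84e-16). ZNF208, the member with the most fingers, had 0.368 and 0.237 CPM in VPR-D9, against 2.38 and 3.27 CPM in parental cells (log2 difference -3.22, edgeR adjusted p = 2.07e-06). ZNF66 had 0.385 and 0.268 CPM in VPR-D9, against 2.18 and 2.34 CPM in parental cells, a log2 difference of -2.79. At the distal end of C4, 4 neighbours, ZNF728, ZNF730, ZNF724 and ZNF91, were called lower in a row. Among them ZNF91, which represses SVA retroelements, changed least, at -0.56, and ZNF730 had 3 counts in VPR-D9 against 128 in parental cells, a 50-fold difference with a counting interval of 16.7 to 246. ZNF93, which represses LINE-1 elements, was lower by a log2 difference of -1.05.

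C3 went the same way as C4 in number, with 8 of 23 members lower in VPR-D9 and 2 higher. ZNF433 had 0.167 and 0.205 CPM in VPR-D9, against 2.16 and 3.07 CPM in parental cells, a 13.8-fold lower level (log2 difference -3.79 ± 0.49, edgeR adjusted p = 3.22e-08). ZNF844 had 0.385 and 0.647 CPM in VPR-D9, against 4.41 and 3.72 CPM in parental cells (log2 difference -2.97). In C5, 3 of 5 members were lower and 0 higher, also at an unadjusted p under 0.05.

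C7 went the other way, with 13 of 24 tested members higher in VPR-D9 than in parental cells and 1 lower, and a median log2 difference of 0.61. ZNF229 (chromosome 19, 44417519 to 44448578) had 11.9 and 13.3 CPM in VPR-D9, against 2.2 and 2.06 CPM in parental cells, so the libraries did not overlap. It was 5.91-fold higher (log2 difference 2.56 ± 0.18, edgeR adjusted p = 4.93e-15). ZNF112 had 3.28 CPM in both VPR-D9 libraries, against 0.576 and 0.95 CPM in parental cells (log2 difference 2.11, edgeR adjusted p = 1.92e-07). Other C7 members called higher were ZNF285 (log2 difference 1.83), ZNF235 (0.98), ZNF226 (0.91), ZNF224 (0.86), a KRAB repressor of the aldolase A gene, and ZNF222 (0.86). ZNF234 was the C7 member called lower, at -2.07. Protein-coding genes that lie inside C7 without being members moved likewise: 10 of 20 tested were higher in VPR-D9 and 1 lower, with a median log2 difference of 0.46. The cluster's summed level was 210 CPM in untreated VPR-D9 and 139 CPM in untreated KRAB-D9, against 154 CPM in untreated parental cells.

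In C6, 11 of 27 members were higher in VPR-D9 than in parental cells and 1 was lower, with a median log2 difference of 0.38. A run of 8 stood next to each other: ZNF566, ZNF260, ZNF529, ZNF382, ZNF461, ZNF567, ZNF850 and ZNF790. ZNF850 was 0.93 ± 0.12 higher on the log2 scale (edgeR adjusted p = 4.31e-08), and ZNF382 had 15 counts in VPR-D9 against 0 in parental cells. In C9, 18 of 54 were higher and 7 lower. There ZNF71 had 2.48 and 2.98 CPM in VPR-D9, against 0.486 and 0.121 CPM in parental cells, an 8.77-fold higher level (log2 difference 3.13 ± 0.46, edgeR adjusted p = 6.63e-07). ZNF419 of the same cluster had 3.16 and 3.85 CPM in VPR-D9, against 1.22 and 1.01 CPM in parental cells (log2 difference 1.65). C8 was split, with 9 of 38 higher and 9 lower. Members called lower in VPR-D9 had a median promoter CpG ratio of 0.627, and those called higher 0.809, which goes with the low ratio of C4, and the part of promoter composition in these differences was not tested.

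**Figure D1:**
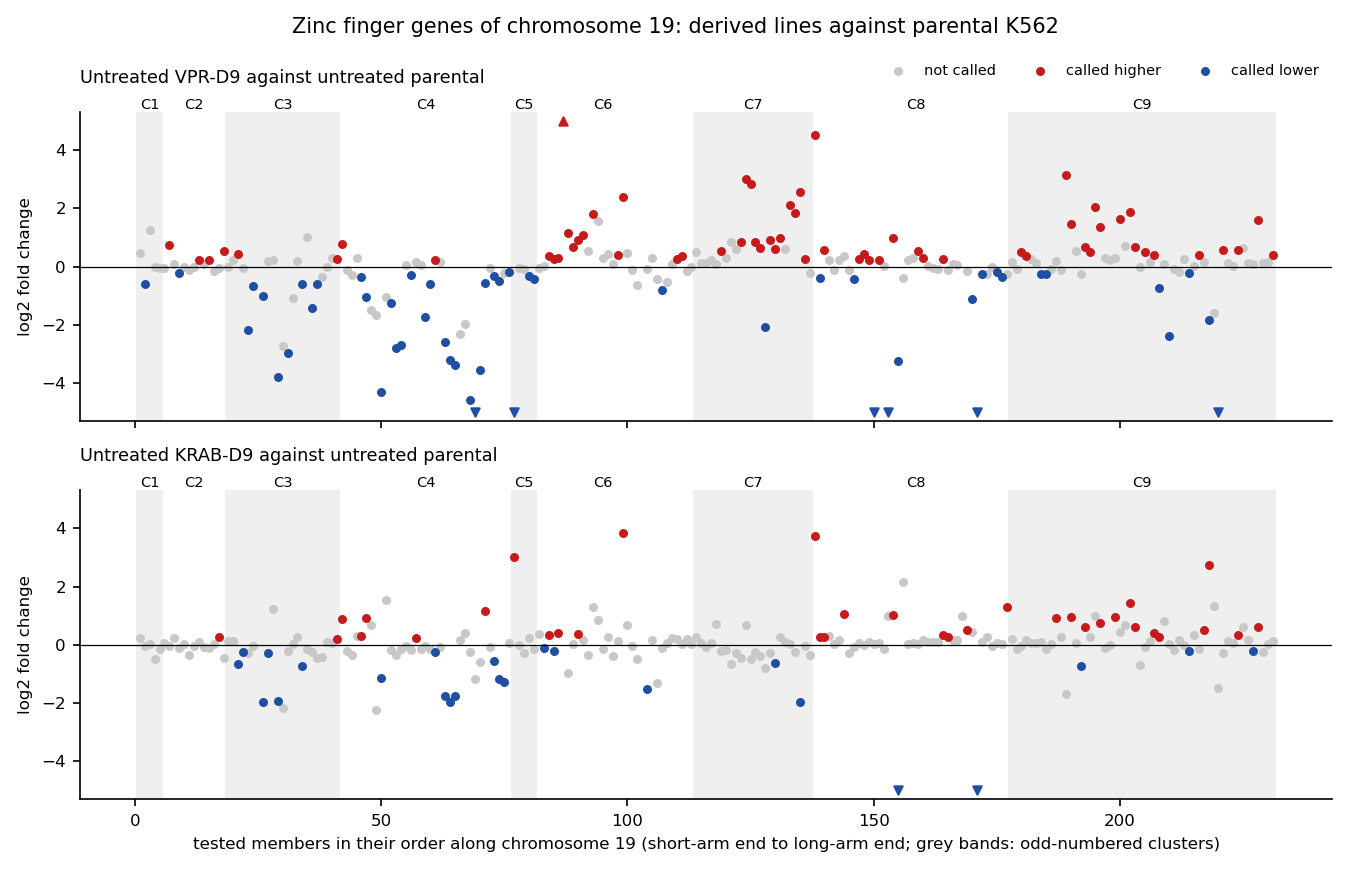
Log2 difference of each tested member in untreated VPR-D9 (upper) and untreated KRAB-D9 (lower) against untreated parental cells, with members in chromosome order on the x axis and grey bands marking every other cluster. Red points were called higher, blue lower and grey not called, and triangles at the edge mark called members with at most 3 counts in a compared group (3 such members per panel that were not called are left out). In VPR-D9, 18 of 33 tested C4 members lie lower and 13 of 24 C7 members lie higher.

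Untreated KRAB-D9 cells differed from parental cells in fewer members: 34 of 231 (14.7%) were higher, against 14.2% of all genes tested, and 24 (10.4%) lower, against 14.3%, so the shares lay near or below the background. By cluster, 13 of the tested members of C9 were higher and 3 lower, and 7 of C8 were higher and 2 lower. C3 had 1 higher and 6 lower, and C4 had 4 higher and 8 lower. In C7, where VPR-D9 had 13 higher, KRAB-D9 had 0 higher and 2 lower (0 and 5 at an unadjusted edgeR p under 0.05).

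ZNF229 was lower in KRAB-D9 with 0.487 and 0.614 CPM, against 2.2 and 2.06 CPM in parental cells (log2 difference -1.96 ± 0.24, edgeR adjusted p = 2.4e-08), so untreated VPR-D9 and untreated KRAB-D9 lay on opposite sides of the parental libraries for this gene. ZNF257 had 4.65 and 4.62 CPM in KRAB-D9 (log2 difference -1.76, edgeR adjusted p = 1.24e-10) and ZNF43 had 3.41 and 3.87 CPM (-1.77, 1.75e-11), both below every parental library. ZNF69 of C3 had 0.825 and 0.773 CPM in KRAB-D9, against 3.28 and 3.01 CPM in parental cells (log2 difference -1.97, edgeR adjusted p = 1.04e-06). ZNF549 of C9 was higher in both lines, with 2.1 and 1.98 CPM in KRAB-D9 and 2.79 CPM in both VPR-D9 libraries, against 0.792 and 0.727 CPM in parental cells. Both lines were compared with the same untreated parental libraries, so the comparisons are not independent. ZNF91 went the other way within C4: it had 20.5 and 21.8 CPM in KRAB-D9, against 9.8 and 9.17 CPM in parental cells (log2 difference 1.16 ± 0.11, edgeR adjusted p = 5.68e-11).

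Several members were near zero in 1 line and plainly present in another. ZNF875 of C6 had 3.65 and 2.98 CPM in KRAB-D9, against 0.126 and 0.343 CPM in parental cells, 14.3-fold higher (log2 difference 3.84 ± 0.37, edgeR adjusted p = 8.1e-11). ZNF302 of C5 had 1.8 and 1.86 CPM in KRAB-D9, against 0.36 and 0.0808 CPM in parental cells, 8.06-fold higher (log2 difference 3.01 ± 0.46, edgeR adjusted p = 1.91e-06). In VPR-D9 no read of ZNF302 was counted in either untreated library, against 24 counts over both parental libraries, at least 9.38-fold lower at a floor of 3 counts over the group. ZNF836 and ZNF880 of C8 likewise had 0 counts in untreated VPR-D9, against 24 each in parental cells. ZNF677 of C8 had 0 counts in untreated VPR-D9, against 132 in parental cells, at least 51.6-fold lower at the same floor. In KRAB-D9 it had 3 counts, a 40.8-fold lower level with a counting interval of 13.7 to 200. No treated VPR-D9 library had a ZNF677 read, and 0.0322 to 0.361 CPM were measured in the KRAB-D9 libraries given IFN, doxycycline or both.

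**Figure D2:**
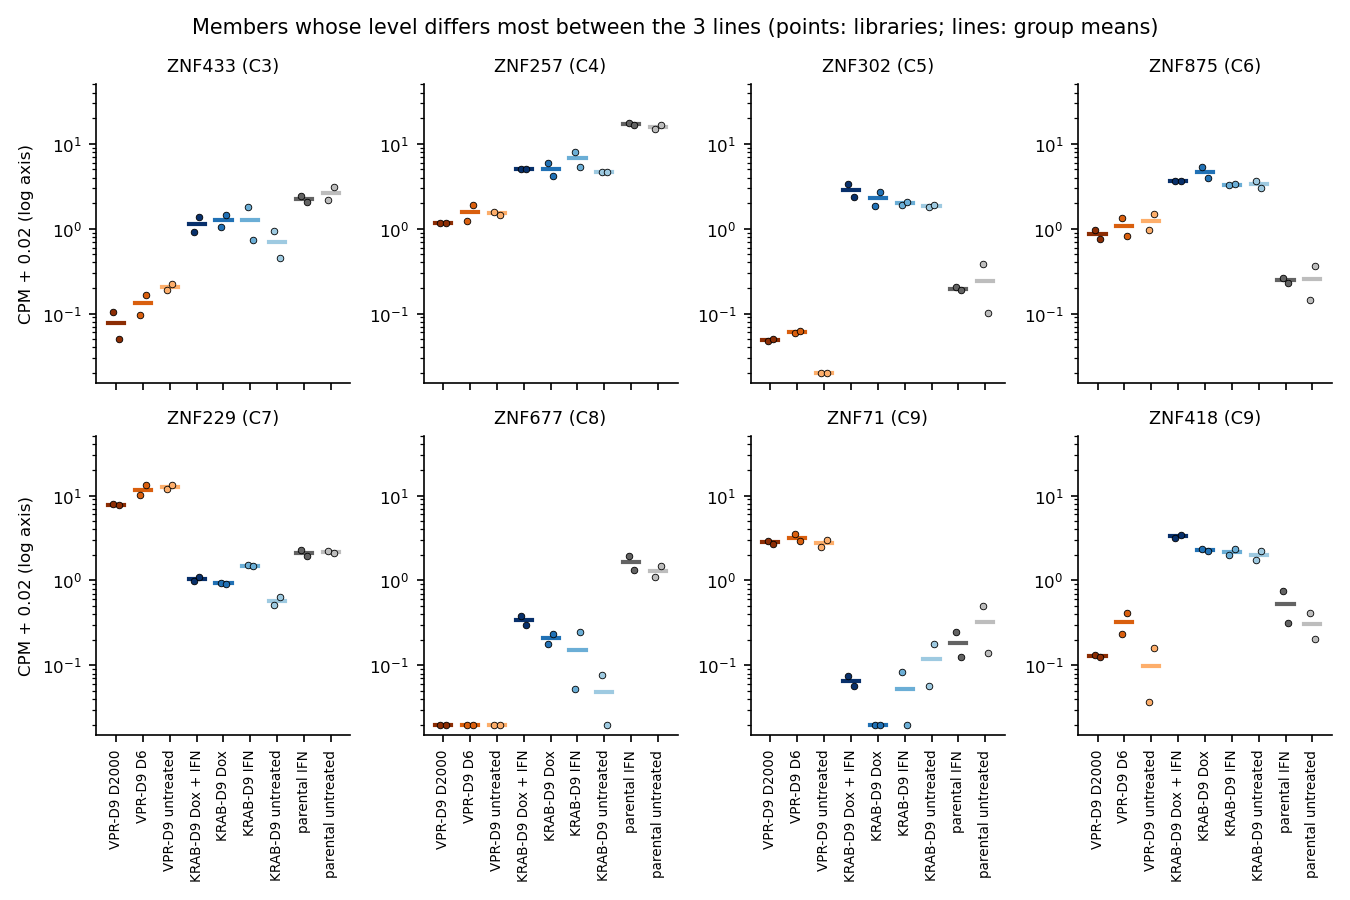
Level of ZNF433, ZNF257, ZNF302, ZNF875, ZNF229, ZNF677, ZNF71 and ZNF418 in each library, as CPM plus 0.02 on a log axis, by group. ZNF302 and ZNF418 are highest in KRAB-D9, ZNF229 and ZNF71 in VPR-D9, and ZNF257 and ZNF677 in parental cells. The points of a line can lie apart.

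The treated libraries of VPR-D9 also lay above all libraries of the other lines for ZNF71, which had 2.92 and 2.65 CPM in D2000 and 3.47 and 2.9 CPM in D6, against 0 to 0.159 CPM in all 8 KRAB-D9 libraries and 0.104 to 0.486 CPM in the parental libraries. ZNF418 of C9 had 1.72 to 3.41 CPM in KRAB-D9 and 0.0167 to 0.397 CPM in VPR-D9, against 0.182 to 0.734 CPM in parental cells.

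Members lay lower in D2000 than in untreated VPR-D9 when read against other genes. Most of the lower calls were among the highest members. Differences are most readily called there in any gene, and the part of this in the calls was not tested. Of 231 tested, 85 (36.8%) were called lower in D2000 than in untreated VPR-D9, against 24.2% of all genes, and 23 (9.96%) higher, against 21.9%. The background differs by class: of all protein-coding genes tested, 34.3% were lower and 26.8% higher, and of the members at 1 CPM or more 45% were lower and 10.6% higher, against 38.3% and 28.2% of all genes at that level. The median log2 difference of those members was -0.25, against -0.07 for all genes at that level. Over all levels it was -0.22 for members and 0.06 for all genes, a gap of -0.28 to which library scaling adds nothing, since it shifts all genes about alike. Scaling by library totals moves the all-gene median to 0.29 and leaves 40 members higher and 40 lower, so only the gap to other genes is described as lower. Without the first D2000 or the second untreated library, the number higher was 13. Among zinc finger genes on other chromosomes, 50 of 232 were higher and 75 lower, with a median of -0.05.

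Each cluster held members called lower (2 to 29), with the most in C9, where 29 of 54 were lower and 5 higher (median -0.40). C8 had 16 lower and 5 higher, and C4 had 7 lower and 2 higher. ZNF480, which led C8 in level, had 31.1 and 30.6 CPM in D2000, against 61.3 and 58.7 CPM in untreated VPR-D9 (log2 difference -0.96 ± 0.06, edgeR adjusted p = 5.48e-16). ZNF587B of C9 had 18.6 and 19.4 CPM, against 36.5 and 36.8 CPM untreated (-0.95, edgeR adjusted p = 1.43e-15). ZNF146 had 191 and 185 CPM in D2000, against 263 and 280 CPM untreated, a log2 difference of -0.53 ± 0.04 (edgeR adjusted p = 2.13e-13). Among called members with a mean of at least 1 CPM in the compared groups, the 3 largest falls were in ZNF296, ZNF551 and ZNF614. ZNF296 of C7 had 2.56 and 3.09 CPM, against 7.43 and 6.58 CPM untreated (-1.31 ± 0.17, edgeR adjusted p = 2.42e-08). ZNF551 had 4.91 and 4.16 CPM, against 10.1 and 11.3 CPM untreated (-1.23, edgeR adjusted p = 1.21e-12), and ZNF614 had 10.5 CPM in both D2000 libraries, against 19.6 and 23.6 CPM untreated (-1.04, edgeR adjusted p = 6.4e-13). D2000 libraries lay below untreated libraries in each of these.

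Members called higher in D2000 were found at all levels. Among those at 1 CPM or more whose libraries did not overlap, the largest rises were in ZNF837, ZNF497 and ZNF541. ZNF837 of C9 had 3.39 and 4.31 CPM in D2000, against 1.37 and 0.868 CPM in untreated VPR-D9, 3.44-fold higher (log2 difference 1.78 ± 0.37, edgeR adjusted p = 9.68e-05). Its neighbour ZNF497 had 6.83 and 8.87 CPM in D2000, against 2.61 and 2.76 CPM untreated, 2.92-fold higher (1.55 ± 0.27, 1.07e-05). ZNF541, in mouse a component of a germ cell histone deacetylase complex, had 2.18 and 2.39 CPM in D2000, against 1.12 and 0.71 CPM untreated, and its call was lost without the second untreated library (log2 difference 1.03, edgeR adjusted p = 0.109). By level, 54 of the 77 members with the highest means (13.4 to 240 CPM) were lower and 9 higher. Of the 77 with the lowest means, 5 were lower and 7 higher. The median log2 difference in D2000 also went with level. It was -0.31 in the 77 highest members, -0.21 in the 77 between (2.75 to 13.3 CPM) and 0.04 in the 77 lowest.

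Few members were called between D6 and untreated VPR-D9. With edgeR, 1 of 231 (ZNF431) was higher, against 3.19% of all genes, and 0 were lower, against 3.41%. At an unadjusted p under 0.05, 13 were higher and 9 lower, and DESeq2 called 2 and 0. ZNF431 had 65.5 and 62.7 CPM in D6, against 52.2 and 54.7 CPM in untreated VPR-D9 (log2 difference 0.26 ± 0.06, edgeR adjusted p = 0.00418), and lost its call without the first D6 library (adjusted p = 0.099) or the first untreated one (0.105). Set directly against D2000, D6 was higher in 81 of 231 members (35.1%), against 21.7% of all genes, and lower in 10 (4.33%), against 18.8%. At 1 CPM or more, 42.9% of members were higher and 5.29% lower, against 34.5% and 25.6% of all genes at that level. Removing any 1 of the 4 libraries left 4 to 6 lower, and scaling by library totals gave 39 higher and 30 lower. The member median lay 0.31 log2 units above the all-gene median. ZNF551 had 9.9 and 9.69 CPM in D6, against 4.91 and 4.16 CPM in D2000 (1.11, edgeR adjusted p = 5.41e-11). ZNF296 had 5.23 and 5.89 CPM in D6, against 2.56 and 3.09 CPM in D2000 (0.98). ZNF587B had 34.8 and 35.2 CPM in D6, against 18.6 and 19.4 CPM in D2000 (0.88), and ZNF837 fell by 1.67 on the log2 scale in D6, with 1.76 and 0.647 CPM, against 3.39 and 4.31 CPM in D2000. In C8, 20 were higher and 1 lower, with ZNF611, ZNF600, ZNF28, ZNF468, ZNF320, ZNF888 and ZNF816 called higher in a row. C9 had 23 higher and 6 lower.

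**Figure D3:**
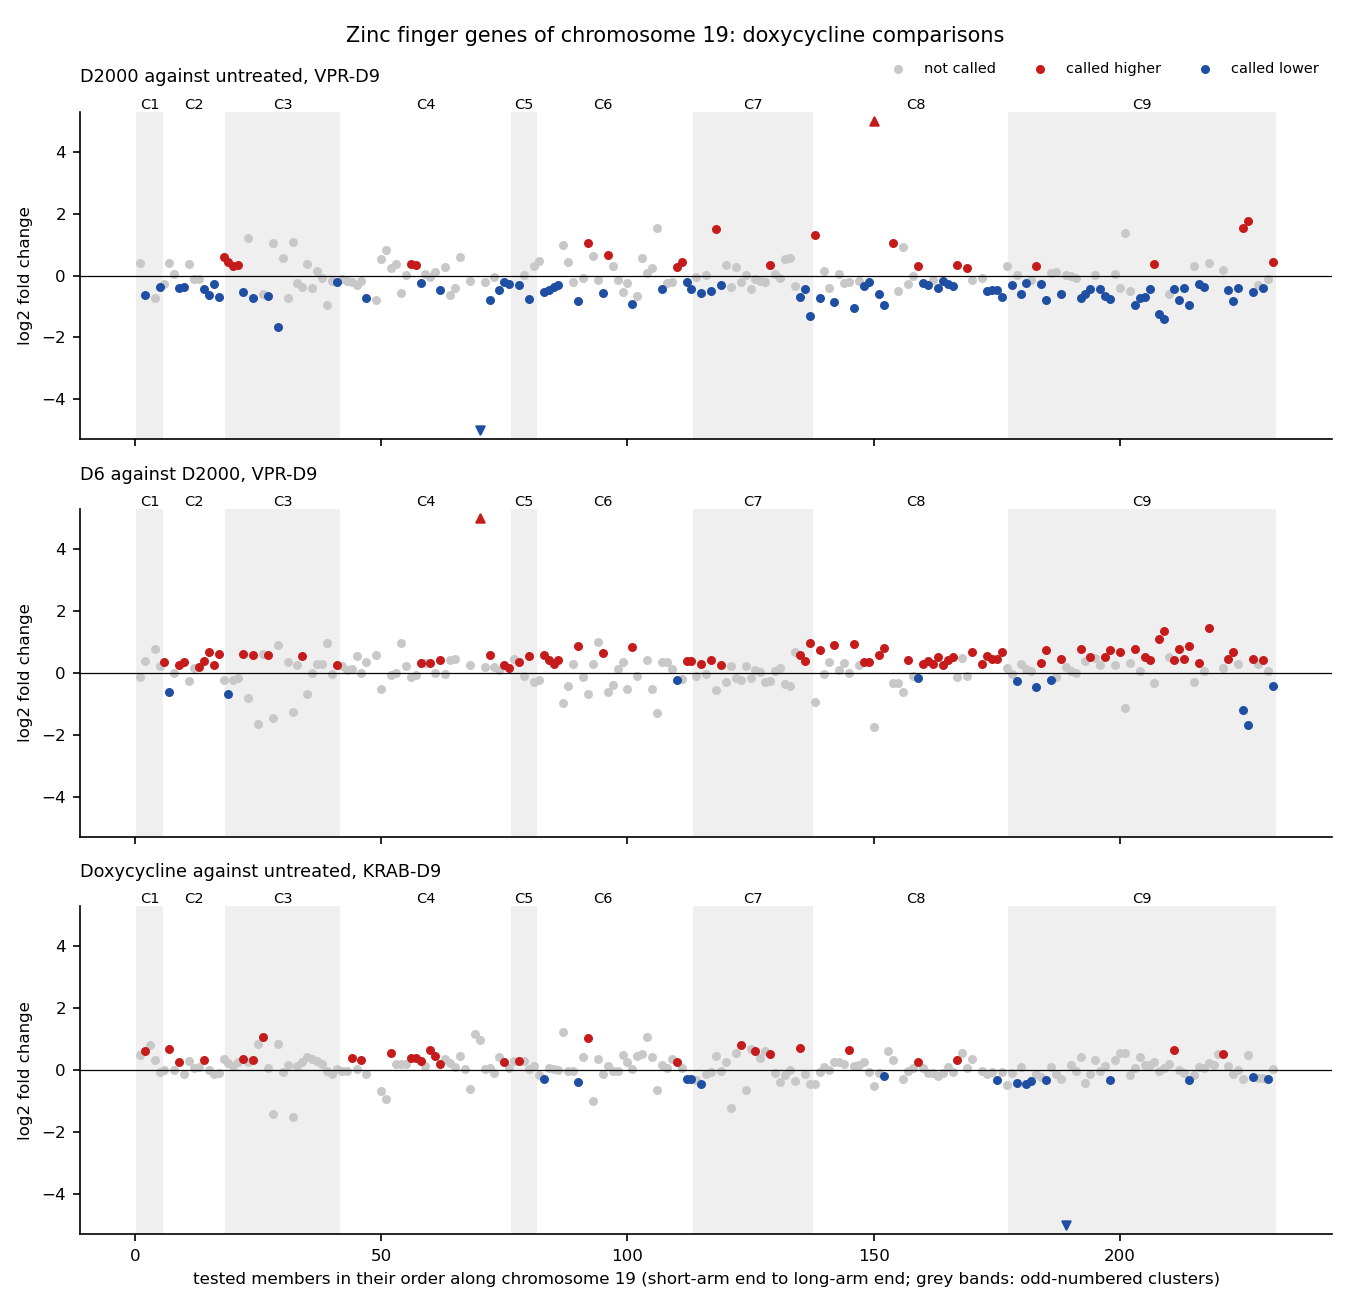
Log2 difference of each tested member in D2000 against untreated VPR-D9, D6 against D2000, and doxycycline against untreated KRAB-D9, with members in chromosome order on the x axis. Colours, bands and triangles are as in the plot of the untreated lines, and 11, 12 and 4 members at such counts that were not called are left out of the panels in that order. Blue points (lower) predominate in the first panel (85 against 23 higher) and red points (higher) in the second (81 against 10 lower).

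Doxycycline in KRAB-D9 gave calls in both directions. Of 231, 29 (12.6%) were higher with doxycycline, against 12% of all genes, and 16 (6.93%) lower, against 12.7%. Removing any 1 library left 13 to 17 higher and 8 to 10 lower. The counts differed by cluster: in C4, 10 of 33 were higher and 0 lower (14 and 0 at an unadjusted edgeR p under 0.05), and in C9, 2 of 54 were higher and 9 lower. Of 169 tested members with a KRAB-A box match, 24 were higher and 6 lower, and of 62 without one, 5 were higher and 10 lower. The difference between these classes was not tested.

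ZNF431, ZNF714 and ZNF708 of C4 stood in a row of higher members. ZNF431 had 77.1 and 72.1 CPM with doxycycline, against 59.5 and 53.3 CPM untreated (0.40 ± 0.06, edgeR adjusted p = 2.16e-06). ZNF776 of C9 had 16 and 17 CPM with doxycycline, against 11 and 9.8 CPM untreated (0.66 ± 0.11, edgeR adjusted p = 4.89e-06). ZNF146 had 204 and 199 CPM with doxycycline, against 241 and 250 CPM untreated (-0.29 ± 0.04, edgeR adjusted p = 2.3e-06). ZNF865 had 23.8 and 25.7 CPM, against 33.5 and 33.7 CPM untreated (-0.44, edgeR adjusted p = 5.5e-05), and ZNF787 had 63.3 and 64.6 CPM, against 76.5 and 83.7 CPM untreated (-0.32). The compared libraries did not overlap for any of these 5. Among called members at 1 CPM or more, the largest rises on the log2 scale included ZNF69 (1.06), ZNF345 (1.04), ZNF222 (0.81), ZNF358 (0.67) and ZNF615 (0.65), and each lost its call without 1 or more of the 4 libraries. The same held for the falls of ZNF576 (-0.46), ZNF579 (-0.41), ZNF850 (-0.39) and ZNF784 (-0.34). ZNF71 was called lower, but it had no read with doxycycline.

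With IFN present, doxycycline left 9 of 231 (3.9%) higher, against 10.4% of all genes, and 24 (10.4%) lower, against 11.9%. Without the first library with IFN alone 14 were higher, and without either library with both agents 5 were higher and 14 or 15 lower. Scaling by library totals gave 18 higher and 13 lower. In C4, 4 of 33 were higher and 5 lower at an unadjusted edgeR p under 0.05, unlike the 14 and 0 without IFN. ZNF132 had 2.75 and 2.59 CPM with doxycycline and IFN, against 5.41 and 4.46 CPM with IFN alone (-0.88, edgeR adjusted p = 5.12e-04), and ZNF587B had 30.7 and 30.2 CPM, against 41.2 and 41.8 CPM (-0.45, 1.24e-06). ZNF714 had 51.1 and 53.4 CPM, against 44.8 and 34.4 CPM (0.41, 7.45e-05). The doxycycline comparisons with and without IFN share no library. In both, 5 members were higher (ZNF714, ZNF431, ZNF429, ZNF83 and ZNF776), 8 were lower (ZNF146, ZNF574, ZNF480, ZNF761, ZNF865, ZNF787, ZNF587B and ZNF584) and none was called in opposite directions. These are 5 of 29 and 5 of 9 of the higher members, and 8 of 16 and 8 of 24 of the lower ones. The same overlap over all genes tested is not given here, so it is not read as a trait of the members.

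The response to D2000 differed from that to doxycycline in KRAB-D9 by an interaction test in the same model. Of all genes at 1 CPM or more, 16.5% were more positive in VPR-D9 and 30.5% more negative. Of the 231 tested members, 7 (3.03%) were more positive, against 12.2% of all genes, and 67 (29%) more negative, against 19.1%. Removing any 1 of the 8 libraries left 2 to 7 and 54 to 63, and scaling by library totals gave 14 and 38. ZNF776 was one of those with a difference, -0.42 in D2000 and 0.66 with doxycycline in KRAB-D9 (interaction -1.09, edgeR adjusted p = 1.68e-07). ZNF121 differed too, at -0.62 in D2000 (67 and 65.2 CPM, against 99.5 and 104 CPM untreated) and -0.01 in KRAB-D9.

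Few members were called with interferon. In parental cells edgeR called 1 of 231 higher (ZNF274), against 3.03% of all genes, and 0 lower, against 1.31%. At an unadjusted p under 0.05, 7 were higher and 6 lower, and DESeq2 called 1 and 0. ZNF274 had 43.4 and 45.9 CPM with IFN, against 37.9 and 38.3 CPM untreated (0.23 ± 0.07, edgeR adjusted p = 0.0368), and it lost its call without any 1 of the 4 libraries (adjusted p 0.0541 to 0.377). In KRAB-D9, 14 were higher (6.06%, against 3.98% of all genes) and 0 lower, against 2.42%. Of all genes at 1 CPM or more, 6.14% were higher and 3.8% lower. At an unadjusted edgeR p under 0.05, 48 members were higher and 3 lower, and DESeq2 called 15 and 0. Without the second IFN library 30 were higher and 3 lower, and without the first 9 and 1. ZNF274 had 57.2 and 51.9 CPM with IFN, against 41.1 and 42.4 CPM untreated (0.38, edgeR adjusted p = 8.2e-05), and ZNF121 had 108 and 96.9 CPM, against 83.1 and 79.2 CPM (0.34, 4.86e-05). ZNF229 had 1.51 and 1.44 CPM with IFN, against 0.487 and 0.614 CPM untreated (1.43 ± 0.26, edgeR adjusted p = 1.94e-04), and lost its call when only the compared groups were fitted (adjusted p = 0.0575). The others were ZNF460 (0.98), ZNF43 (0.72), ZNF44, ZNF569, ZNF14, ZNF441, ZNF493, ZNF181, ZNF841, ZNF480 and ZNF587. Without the first untreated library, ZNF460 (log2 difference 1.08), ZNF43 (0.63), ZNF44 (0.71), ZNF14 (0.57) and ZNF569 (0.42) lost their calls in edgeR. ZNF460, ZNF44 and ZNF14 also lost theirs without the second untreated library. The same held for ZNF460 and ZNF14 without the first IFN library and for ZNF44 without the second. With only the compared groups fitted, ZNF14 (edgeR adjusted p = 0.0811) and ZNF44 (0.115) were not called.

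In KRAB-D9 that also had doxycycline, IFN left 3 members higher, against 3.12% of all genes, and 1 lower, against 1.77%. ZNF121 had 98.7 and 99.6 CPM with both agents, against 85.1 and 75.7 CPM with doxycycline (0.30, edgeR adjusted p = 2.35e-04). ZNF274 had 56.9 and 54.8 CPM, against 45.8 and 46.3 CPM (0.28 ± 0.06, edgeR adjusted p = 0.00489). ZNF121 lost its call without the second doxycycline library (edgeR adjusted p = 0.058), and ZNF274 without the first one (0.0648) or the first with both agents (0.0935). ZNF541 was the other higher member and ZNF224 the lower one. Removing any 1 library left 1 to 2 higher and 0 to 1 lower. A test of IFN in KRAB-D9 minus IFN in parental cells called ZNF229 (1.44, edgeR adjusted p = 0.0353) as the 1 member more positive, against 0.145% of all genes, and 0 more negative, against 0.158%. At an unadjusted p under 0.05, 23 were more positive and 2 more negative, and DESeq2 called 1 and 0. The count of more positive members was 12 without the second KRAB-D9 IFN library, 1 without the first parental IFN library and 0 without any of the other 6.

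**Figure D4:**
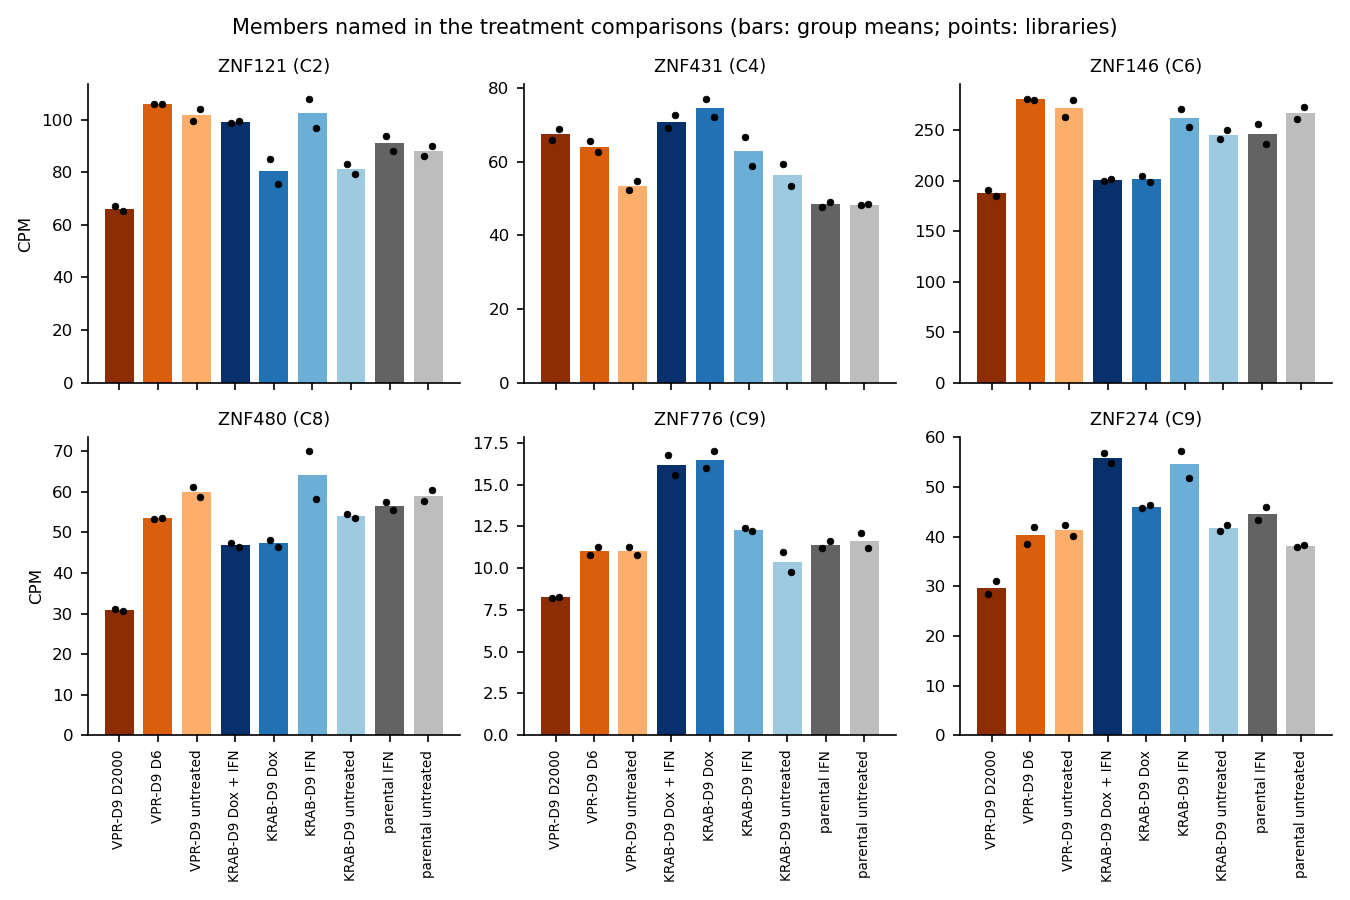
Level of ZNF121, ZNF431, ZNF146, ZNF480, ZNF776 and ZNF274 in each group, as bars of the group mean in CPM from 0 with both libraries as points. ZNF480 is 31.1 and 30.6 CPM in D2000, below its 61.3 and 58.7 CPM in untreated VPR-D9, and ZNF431 is 77.1 and 72.1 CPM with doxycycline in KRAB-D9.

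Over 7 treatment comparisons, 131 of 231 members were called in at least 1 (56.7%, against 55.2% of all genes tested) and 100 in none. Of 10 comparisons that also took in the untreated lines and D6 against D2000, 185 members were called in at least 1 (80.1%, against 66.7% of all genes tested). These all-gene shares take in genes of every level, and the shares at 1 CPM or more are not given here. As a share of library totals, members took 0.3% and 0.304% in D2000 and 0.322% and 0.318% in D6, against 0.306% and 0.314% in untreated VPR-D9. On the TMM scale, members summed to 2560 CPM in D2000 and 3110 in D6, against 3080 CPM in untreated VPR-D9. C4 summed to 405 CPM with doxycycline, against 338 CPM untreated in KRAB-D9. With IFN present, C4 summed to 393 and 410 CPM with doxycycline and to 419 and 351 CPM without it, so those libraries overlapped.

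**Figure D5:**
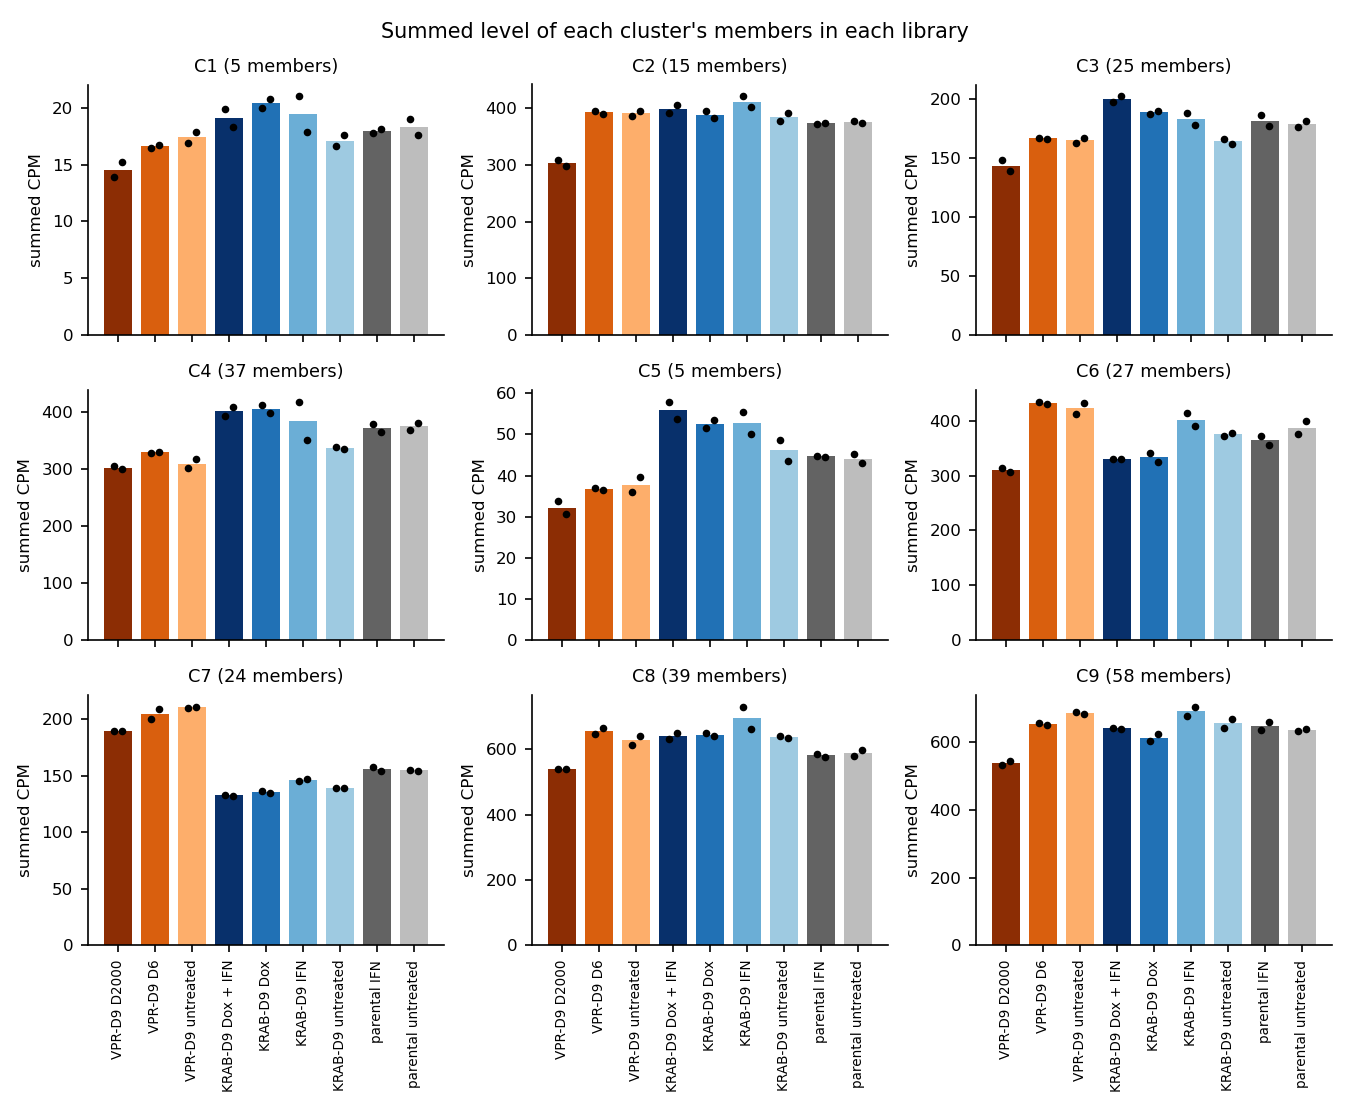
Summed TMM-scaled CPM of the members of each cluster, 1 panel per cluster from C1 to C9, as bars of the group mean with both libraries as points. C7 is higher in the VPR-D9 groups (189 to 210 CPM) than in KRAB-D9 (133 to 146 CPM), with parental cells at 154 and 156 CPM.

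A list of 30 partner genes of the KRAB-TRIM28 silencing pathway was read beside the members. TRIM28 itself averaged 454 ± 3.46 CPM in D2000 and 627 ± 11.2 in D6, against 687 ± 6.05 in untreated VPR-D9 (SD, n = 2 each), and D2000 differed by -0.60 (edgeR adjusted p = 5.73e-16). With doxycycline in KRAB-D9 it averaged 631 ± 2.94 CPM, against 794 ± 2.92 untreated (SD, n = 2 each), a log2 difference of -0.33 (edgeR adjusted p = 2e-08). In D2000, 5 of the 30 were higher (16.7%) and 20 lower (66.7%), against 28.2% and 38.3% of all genes at 1 CPM or more. Among the lower were the DNA methyltransferase gene DNMT1 (-0.66) and the deacetylase gene HDAC2 (-0.59). The 5 higher were DNMT3A (0.59), CHD3 (0.46), the deacetylase gene HDAC1 (0.43), CBX5 (0.42) and MORC2 (0.26). Scaling by library totals moves the all-gene median up by 0.23 in D2000, and the partner counts on that scale are not given here. With doxycycline in KRAB-D9, 5 were higher (16.7%) and 9 lower (30%), against 18.5% and 20% of all genes at 1 CPM or more. They included the HP1 gene CBX5 at 0.38 and DNMT3B at -0.37. Related genes on the list did not move with these: CBX1 was lower (-0.19), CBX3 was not called and DNMT3A was higher (0.63). Each partner gene averaged at least 14.8 CPM in every group, so genes at 1 CPM or more are not matched for level. The part of the partner genes in the members' differences was not tested.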

How the data were processed

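Stranded, polyA-selected mRNA libraries were counted per gene by the authors, and the deposited values are raw whole-number counts. FastQC 0.11.9, cutadapt 2.10, STAR 2.7.8a, featureCounts 2.0.2 and the build GRCh38.p13 are listed in the submitters' processing notes. Which annotation release and strand setting were used is not given in the sources used here. Of 246 members, 112 had the same coordinates as in GENCODE 29.

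Counts were fitted with edgeR 4.0.16 (R 4.3.3; TMM scaling, filterByExpr by group, robust quasi-likelihood, 9 group means over all 18 libraries). P-values were adjusted over 22143 genes by the Benjamini-Hochberg method, and calls were made at 0.05. CPM are TMM-scaled, and RPKM divides mean CPM by the deposited gene length in kilobases. The fit was tested on simulated data. Alternatives were library totals, DESeq2 1.42.0, no filter, compared groups only, a replicate block and leaving out each library. Intervals on ratios of counts are 95% and cover counting error only.

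The members and lists were chosen with earlier results of these data known. Genes were named by the 6 largest rises and falls called at 1 CPM or more without overlap, the highest, most variable and most significant members per cluster, and 3 partner genes per main comparison with TRIM28. Runs of neighbours, counts under 5, genes shared between comparisons and further partner genes were named after their values were seen.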

Additional observations from a re-analysis of the deposited data

Results flagged for a closer look

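The response to D2000 in VPR-D9 minus that to doxycycline in KRAB-D9 was tested as an interaction. It was called more positive for 7 of 231 members, against 12.2% of all genes, and more negative for 67, against 19.1%. Of all genes at 1 CPM or more, it was called more positive for 16.5% and more negative for 30.5%. Among the members named by the rule for called genes, it was -1.64 on the log2 scale for ZNF69, -1.48 for ZNF154, -1.42 for ZNF229, -1.24 for ZNF555, -1.20 for ZNF551 and -1.17 for ZNF614. In the other direction it was 1.85 for ZNF497, 1.77 for ZNF541, 0.45 for ZNF580, 0.44 for ZNF579 and 0.37 for ZNF780A. Fitted values of ZNF71, ZNF724 and ZNF836 are not given because ZNF71 had no read in KRAB-D9 with doxycycline, ZNF724 had 1 in D2000 and ZNF836 had 0 in untreated VPR-D9. ZNF433 was also called more negative, with 8 counts in D2000, against 23 in untreated VPR-D9. The codes D2000 and D6 are not explained in the sources used here, so dose and duration may differ between the compared groups. Without 1 or more of the 8 libraries the calls of ZNF154, ZNF541, ZNF555, ZNF579, ZNF580 and ZNF780A were lost.

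The response to IFN in KRAB-D9 minus that in parental cells was called more positive for 1 member and more negative for 0. That member was ZNF229, at 1.44 on the log2 scale, with 1.51 and 1.44 CPM with IFN and 0.487 and 0.614 CPM untreated in KRAB-D9, against 2.28 and 1.94 CPM with IFN and 2.2 and 2.06 CPM untreated in parental cells.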

How the results depend on the processing

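Of the values given for named genes under the alternatives, 1026 kept their direction and their side of the threshold, 126 lost the call and 0 reversed. The replicate numbers do not pair the libraries: deviations of same-numbered libraries correlated at -0.0706 to 0.106. With the replicate block, 27 members were higher and 15 lower with doxycycline in KRAB-D9, 25 and 84 in D2000, and 81 and 10 in D6 against D2000. Scaled by library totals, 40 members were higher and 40 lower in D2000, 39 higher and 30 lower in D6 against D2000, 18 higher and 13 lower with doxycycline in the presence of IFN, and 14 more positive and 38 more negative in the interaction of D2000 and doxycycline. Fitting the compared groups only gave 7 higher and 1 lower in D6, 19 lower in D6 against D2000, 15 lower with doxycycline in the presence of IFN, 1 lower with IFN in parental cells, 6 higher with IFN in KRAB-D9, 5 higher and 2 lower with IFN after doxycycline, and 0 higher in the IFN interaction. With no filter, 2 members were higher in D6 and 1 lower with IFN in KRAB-D9. DESeq2 gave 2 higher in D6 and 6 lower in D6 against D2000.

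Leaving out 1 library at a time gave 40 to 50 higher and 37 to 46 lower in VPR-D9 against parental cells, and 23 to 26 and 17 to 20 in KRAB-D9. It gave 13 to 18 higher and 67 to 75 lower in D2000, 0 to 2 and 0 to 1 in D6, and 64 to 71 and 4 to 6 in D6 against D2000. With doxycycline in KRAB-D9 it gave 13 to 17 higher and 8 to 10 lower, and with IFN present 5 to 14 and 14 to 26. With IFN it gave 0 to 0 higher and 0 to 1 lower in parental cells, 5 to 30 and 0 to 3 in KRAB-D9, and 1 to 2 and 0 to 1 after doxycycline. The interactions gave 2 to 7 and 54 to 63 for D2000, and 0 to 12 and 0 to 2 for IFN. The causes were not tested. Fewer libraries leave fewer degrees of freedom, so a lost call is no sign of absence. A gap of 0.5 Mb gives 10 clusters with 232 members and 2 Mb gives 6 with 243. Members at low counts could be called only for large differences.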
